A study of Mus musculus with 34 samples.

Results

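Single mouse embryos at 3 stages were searched for the transcripts of 10 genes that package DNA: the linker histone genes H1foo and H1f0, the histone H3.3 genes H3f3a and H3f3b, the H2A variant genes H2afz, H2afx and H2afy, the chromatin assembly factor genes Chaf1a and Chaf1b, and the nucleoplasmin gene Npm2. The genes were picked by symbol, and all 10 were found among the 49686 rows of the zygote and late 2-cell tables and among the 51734 rows of the blastocyst table. Zygotes had been injected with mRNA for CHK1, a kinase of the DNA damage checkpoint, either WT or the mutant written R442Q, so that every embryo compared here, the WT controls included, carried injected CHK1 mRNA. WT CHK1 had been given to 5 zygotes, 4 embryos taken late in the 2-cell stage and 7 taken as blastocysts, and R442Q to 6, 5 and 7. Zygotes and late 2-cell embryos had received no inhibitor, whereas all 14 blastocysts had been grown in KSOM medium with 30 nM of a Chk1 inhibitor. Each library was made from 1 embryo, and the strain of the mice was not given in the sources used here.

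Linker histones bind DNA where it enters and leaves the nucleosome, and histone variants replace the standard core histones at particular places and times. Chaperones carry the histones and place them: the CAF-1 complex, which holds the Chaf1a and Chaf1b proteins, delivers H3 and H4 to newly replicated DNA, while H3.3 is mostly placed without replication. The mouse oocyte stores its own forms, among them the H1foo linker and the Npm2 chaperone, and the early embryo passes from these maternal stores to transcripts of its own genome, a switch that is well under way in the mouse by the late 2-cell stage.

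Each zygote library held 7183632 to 11296522 estimated counts and each late 2-cell library 5727956 to 8916343, and blastocysts were available here as FPKM (fragments per kilobase of transcript, scaled to library size) alone, so their depth in counts is unknown. Chek1, the injected gene, stood at 4593 to 8605 CPM (counts scaled to library size, with scaling factors between embryos) in WT and 6126 to 7972 CPM in R442Q zygotes, at 388 to 659 and 266 to 651 CPM in late 2-cell embryos, and at 7.05 to 38.2 and 13.3 to 23.6 FPKM in blastocysts. All 6 maternal transcripts had a median FPKM of at least 1 in both zygote groups and 0 of 6 did in blastocysts, while all 5 trophectoderm markers did in both blastocyst groups. The summed FPKM of 10 markers of cumulus cells, which surround the oocyte, was 1.05 to 3.40 in zygotes and 17.6 to 73.4 in late 2-cell embryos, with Fshr, Inha and Inhba listed at 0 in all of the latter, and its part in the stage changes below was not tested. Replicate 3 of the R442Q late 2-cell embryos stood apart, with 16211 genes at an FPKM of at least 1 against 11984 to 14210 in the other 8 late 2-cell embryos, and with the highest summed FPKM of maternal transcripts at that stage, 6893 against 1212 to 4286. Results that rest on this embryo are given with and without it.

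Promoter sequences are printed for the 4 members that reached the highest FPKM in any embryo, since these are the transcripts most of the results turn on and they set an oocyte gene, H1foo, beside 3 broadly used variant genes. Of the 10 members, 8 had a promoter entry in RefSeq (GRCm38.p6), namely all but H2afx and Npm2. Each line gives the 250 bases before the RefSeq start site on the strand of the gene, 5′ to 3′. Capitals mark CCAAT or its reverse complement ATTGG, and TATAAA, which is searched on both strands too; the motifs do not overlap one another.

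H1foo: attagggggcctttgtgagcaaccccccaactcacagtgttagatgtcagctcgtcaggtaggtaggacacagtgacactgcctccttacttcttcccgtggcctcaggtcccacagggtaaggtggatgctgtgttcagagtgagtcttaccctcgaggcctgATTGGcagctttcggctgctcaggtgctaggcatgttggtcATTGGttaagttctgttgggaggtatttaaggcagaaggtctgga

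H3f3a: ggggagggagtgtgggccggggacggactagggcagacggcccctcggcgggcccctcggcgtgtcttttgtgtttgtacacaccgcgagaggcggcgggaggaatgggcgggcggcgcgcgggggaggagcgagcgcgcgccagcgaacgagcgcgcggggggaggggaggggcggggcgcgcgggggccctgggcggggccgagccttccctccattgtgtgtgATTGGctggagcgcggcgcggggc

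H3f3b: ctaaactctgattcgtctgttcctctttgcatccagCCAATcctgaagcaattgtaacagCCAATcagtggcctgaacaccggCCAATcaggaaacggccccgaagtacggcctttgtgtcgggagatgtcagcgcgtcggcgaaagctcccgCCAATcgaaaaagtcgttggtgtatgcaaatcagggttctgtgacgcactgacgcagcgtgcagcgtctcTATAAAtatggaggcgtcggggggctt

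H2afz: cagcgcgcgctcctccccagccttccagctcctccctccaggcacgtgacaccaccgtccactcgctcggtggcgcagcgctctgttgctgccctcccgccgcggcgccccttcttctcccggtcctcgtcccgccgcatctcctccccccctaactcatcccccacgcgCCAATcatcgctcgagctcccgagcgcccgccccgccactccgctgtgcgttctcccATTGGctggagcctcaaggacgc

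The H1foo window (chr6:115944681-115944930, plus strand) held 4 CpG dinucleotides and was 53.2% GC, close to the middle of the 32851 mouse promoter windows of the same length, whose median was 6 CpG and 52.4% GC. The windows of H3f3a (chr1:180813606-180813855, minus strand), H3f3b (chr11:116024505-116024754, minus strand) and H2afz (chr3:137864237-137864486, plus strand) held 35, 19 and 28 CpG, all above the upper quartile of 16. CCAAT, read on both strands, occurred 4 times in the H3f3b window, at bases -214, -190, -167 and -97 from the start, 2 times in those of H2afz and H1foo and 1 time in that of H3f3a. H3f3b was the only one of the 8 members with TATAAA, which began at base -27. Over all windows, 33.8% held CCAAT and 12.4% held TATAAA. Of the other 4 members with an entry, Chaf1a held 1 CCAAT and H1f0, H2afy and Chaf1b held neither motif. The H3f3a and H3f3b windows lie inside the GENCODE spans of their genes given below, downstream of the outermost annotated 5′ end. These matches describe the letters of the windows and not the binding of any factor.

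From the zygote to the late 2-cell stage some members fell and some rose. In WT embryos, 7 of the 10 members changed from zygote to late 2-cell by edgeR's quasi-likelihood test with Benjamini-Hochberg adjustment over all genes, 3 higher and 4 lower, where 61.2% of all 16199 genes tested were called (36.2% higher and 25.0% lower). In R442Q embryos all 10 were called, 5 higher and 5 lower, against a background of 65.1% (35.3% higher and 29.8% lower). H1foo, Npm2, Chaf1a and H2afy fell in both genotypes, and H2afz, H2afx and Chaf1b rose in both. Embryos of the 2 stages did not overlap for 7 members in WT, 2 higher and 5 lower (all genes 57.0%, with 31.2% higher and 25.8% lower), and for 6 in R442Q, 2 higher and 4 lower (all genes 45.5%, with 21.7% higher and 23.9% lower). The median change over the members was -0.41 on the log2 scale in WT embryos and -0.15 in R442Q embryos, against medians of 0.34 and 0.22 over all genes tested. Both stages came from separate tables, so stage and table cannot be told apart. Values are scaled within the library of each whole embryo, so the amount of RNA per cell was not measured.

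Between the genotypes, fewer members were called. In zygotes 3 of the 10 members were called, H3f3b higher and H3f3a and Chaf1a lower in R442Q embryos, next to 13.2% of the 12420 genes tested (6.30% higher and 6.92% lower). Zygotes of the genotypes did not overlap for 1 member, against 8.39% of all genes (4.65% higher and 3.74% lower). Late in the 2-cell stage 0 of the 9 members tested were called by edgeR's quasi-likelihood test, where 4.18% of 13883 genes were called (1.22% higher and 2.95% lower), although 5 members had an unadjusted p under 0.05. DESeq2 called 5 of them at that stage, limma on the deposited FPKM called 0, and edgeR called 5 when both stages shared 1 estimate of spread. No member had genotypes that did not overlap at that stage, against 12.2% of all genes (3.91% higher and 8.29% lower). In blastocysts 0 of the 8 members tested were called by limma, 0 had an unadjusted p under 0.05, and 0.00885% of 11297 genes were called, all of it higher. Blastocysts did not overlap for 0 members and for 0.416% of all genes (0.354% higher and 0.0620% lower). The labels do not say that embryos of a group came from separate mice or injection days, so p-values measure the spread between these embryos.

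**Figure D1:**
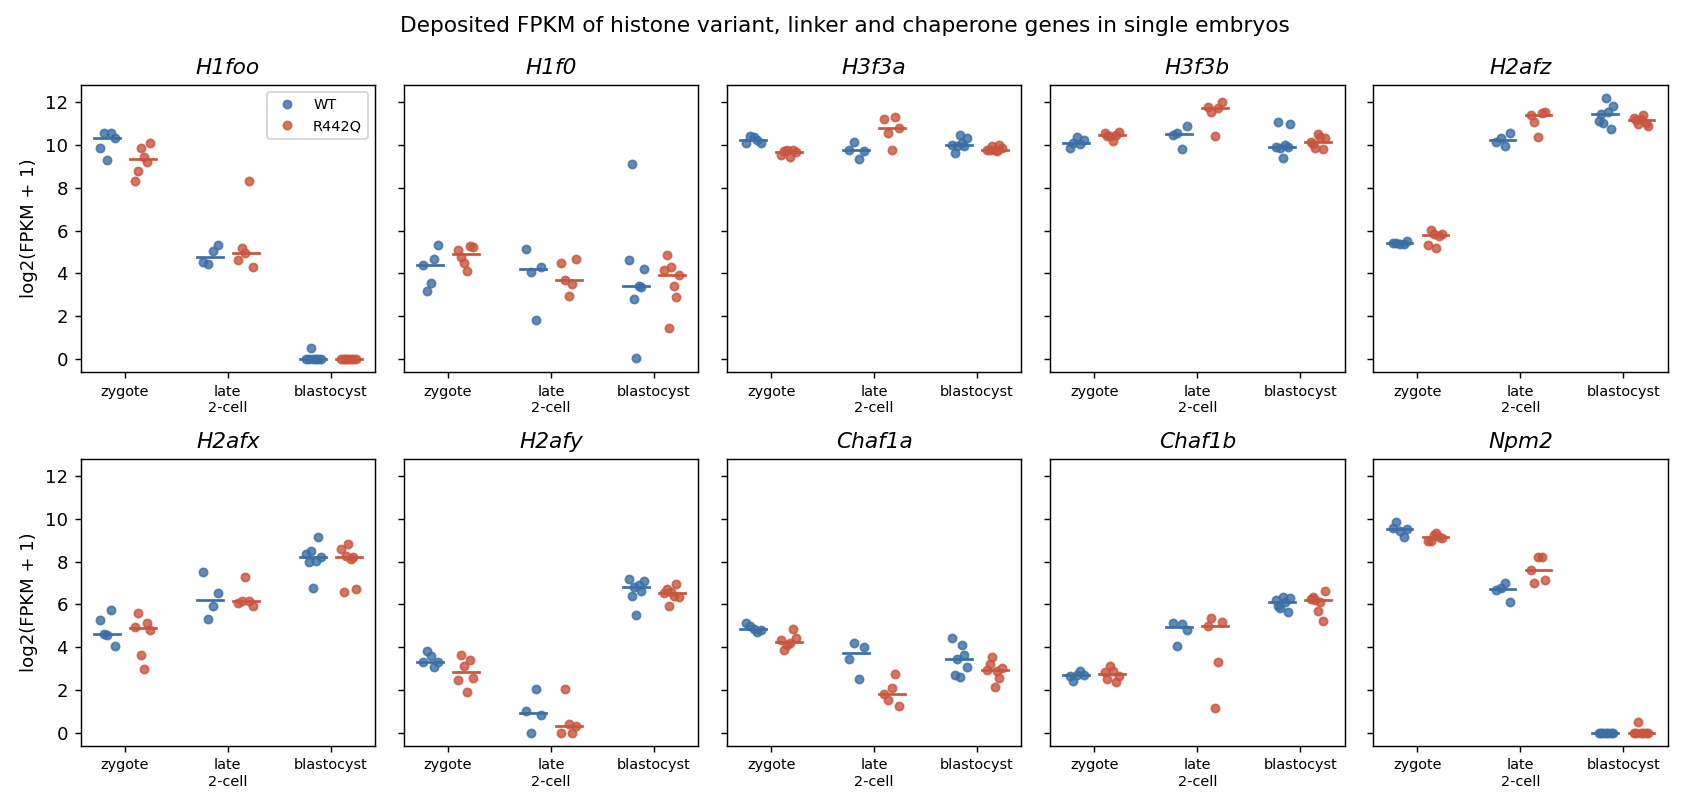
Deposited FPKM, as log2(FPKM + 1), of the 10 members in every embryo (points) with the median of each group (bars), WT in blue and R442Q in red, at 3 stages. Over both genotypes, H1foo and Npm2 go from medians of 929.8 and 614 FPKM in zygotes to 0 in blastocysts, while H2afz goes from 42.5 to 2351 FPKM. The stages were normalised separately by the authors.

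H1foo (chr6:115944938-115950236 in GRCm38), the linker histone of the oocyte, lay at a median percentile of 99.8 among the 43349 symbols that the tables share in zygotes. Its median was 929.8 FPKM over 11 zygotes, 30.4 FPKM over 9 late 2-cell embryos and 0 FPKM over 14 blastocysts, where it was listed at 0 in every embryo but WT replicate 3 (0.41 FPKM). Where no genotype is named, stage medians in FPKM here and below pool both genotypes. In CPM, WT zygote replicates 1 to 5 had 838, 1384, 588, 1408 and 1211, and the 4 WT late 2-cell embryos had 17.4, 19.2, 28.9 and 37.2. All late 2-cell embryos of WT therefore lay below all WT zygotes, and H1foo fell by 5.40 ± 0.76 (SE) on the log2 scale, a 42.3-fold decrease (adjusted p = 2.0e-06, edgeR). The R442Q zygotes had a lowest, median and highest value of 348, 679 and 1121 CPM. The difference from WT zygotes was -0.66 ± 0.26 (adjusted p = 0.101, edgeR) with overlapping embryos, and it passed the threshold in 2 of 11 fits that left out 1 embryo and in 2 of 7 other settings, with adjusted p from 0.0017 to 0.776 over all of them. The R442Q late 2-cell embryos had 23.2, 32.4, 24.5, 298 and 17 CPM, all below the R442Q zygotes, and H1foo fell by 3.16 ± 0.61 (adjusted p = 8.9e-05, edgeR), or by 4.83 without replicate 4. Replicate 4 alone set this group apart: the genotype difference was 1.65 ± 0.77 (adjusted p = 0.240, edgeR) with it and -0.03 (adjusted p = 0.981) without it.

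H1f0 (chr15:79028450-79030504), the replacement linker histone of cells that divide little, was far lower than H1foo in zygotes and scattered widely between embryos. Its medians were 24.4, 15.8 and 12.0 FPKM at the 3 stages, in that order. The R442Q zygotes ran from 35.2 over a median of 63.2 to 79.2 CPM, and the R442Q late 2-cell embryos had 41.6, 22.5, 11.1, 19.2 and 45.7 CPM. H1f0 fell by 1.10 ± 0.48 on the log2 scale in R442Q embryos (adjusted p = 0.049, edgeR), a call that held in 9 of 20 fits leaving out 1 embryo and was lost without R442Q late 2-cell replicate 3 (adjusted p = 0.153), and the change was -0.26 ± 0.52 (adjusted p = 0.685) in WT embryos. The test of the difference between these changes gave -0.84 ± 0.70 (adjusted p = 0.50, edgeR). WT zygotes had 37.2, 14.6, 19.9, 46.4 and 73.5 CPM, which overlapped the R442Q zygotes (0.61 ± 0.33, adjusted p = 0.263). In blastocysts WT replicate 2 had 548 FPKM and the other 13 embryos 0.04 to 28.4 FPKM. As a share of the summed FPKM of the linker pair, H1foo made up a median of 98.3% in WT and 95.6% in R442Q zygotes, 62.1% and 74.5% in late 2-cell embryos, and 0% in both blastocyst groups. The late 2-cell shares ran from 39.5% to 92.7% in WT and from 43.1% to 96.9% in R442Q embryos. In counts their medians were 45.0% and 59.0%.

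The H3.3 genes encode the same protein from separate loci, H3f3a (chr1:180800832-180813943) and H3f3b (chr11:116021912-116027962), and both were high at every stage. Over both genotypes, H3f3a had medians of 874, 1128 and 983 FPKM and H3f3b of 1329, 1872 and 1050 FPKM in zygotes, late 2-cell embryos and blastocysts. From zygote to late 2-cell the H3f3a median went from 1212 to 865 FPKM in WT and from 821 to 1805 FPKM in R442Q embryos. At each stage both genes lay above the 99th percentile of the 43349 symbols that the tables share, in every embryo. Both share sequence with pseudogenes and other transcripts, since 12.3% of the 50-base stretches of H3f3a and 6.86% of those of H3f3b occur in other annotated genes, and H3f3a has transcripts on its opposite strand (Gm17275 and H3f3aos). Whether counting used the strand is not given in the sources used here, so reads of H3f3a and its opposite-strand partners cannot be told apart. Other members have this limit too, as Chaf1a (Ubxn6), H1f0 (Gm49544), H2afx (Gm44335) and H2afy (Gm47071) overlap genes on the opposite strand. On the same strand, Npm2 overlaps Xpo7 and Chaf1b overlaps Gm49617. The part of these overlaps in the values was not tested.

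In zygotes the genotypes differed in opposite directions at these loci. The WT zygotes had 646, 806, 805, 724 and 651 CPM of H3f3a, and the R442Q zygotes ran from 434 over a median of 515 to 553 CPM, so that every R442Q zygote lay below every WT zygote, as did 3.74% of all genes tested. H3f3a was 1.47-fold lower in R442Q zygotes (log2 fold change -0.55 ± 0.10, adjusted p = 0.0016, edgeR), a call that held in all 11 fits leaving out 1 embryo and in 6 of 7 other settings, and not when the stages were fitted together (adjusted p = 0.337). H3f3b stood at 1368, 1582, 1790, 1471 and 1649 CPM in WT zygotes and at 1766 to 2079 CPM, median 2005, in R442Q zygotes, with the highest WT embryo above the lowest R442Q embryo. Its log2 fold change was 0.29 ± 0.09 (1.22-fold, adjusted p = 0.036, edgeR), past the threshold in 4 of 11 fits leaving out 1 embryo, with adjusted p up to 0.104, and in 3 of 7 other settings. The scaling factor of each library in the joint model of both stages, which is not the fit of zygotes alone, moved with the genotype, at 1.0 to 1.04 in WT and 0.888 to 0.940 in R442Q zygotes. On deposited FPKM, which use neither scaling, limma gave -0.61 for H3f3a (adjusted p = 0.0013) and 0.33 for H3f3b (adjusted p = 0.043). Marker sums moved with the genotype too. The 6 late 2-cell activation transcripts summed to 5.65 to 11.8 FPKM in WT and 15.5 to 113 FPKM in R442Q zygotes, and the 6 maternal ones to 4697 to 6319 and 3286 to 4728 FPKM, and the part of either in the zygote results was not tested.

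Within the pair, H3f3b made up 46.0%, 43.9%, 50.2%, 46.4% and 52.9% of the summed H3.3 FPKM in the 5 WT zygotes and 61.3% to 67.5%, median 62.6%, in the 6 R442Q zygotes. The groups did not overlap, neither in FPKM nor in counts, where the shares were 66.2% to 71.7% in WT and 77.7% to 81.3% in R442Q zygotes. The share was 57.0% to 68.7% in WT and 57.7% to 69.4% in R442Q embryos late in the 2-cell stage, and 32.0% to 73.7% and 46.4% to 62.7% in blastocysts, with overlap at both stages.

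At the late 2-cell stage both H3.3 transcripts stood higher in most R442Q embryos than in WT. WT late 2-cell embryos had 430, 635, 373 and 516 CPM of H3f3a, and R442Q embryos had 1423, 872, 418, 1516 and 942 CPM. H3f3b stood at 1437, 1798, 1031 and 2155 CPM in WT and at 4131, 3216, 1279, 3984 and 4434 CPM in R442Q embryos. For both genes 4 of 5 R442Q embryos lay above all WT embryos, and replicate 3, the embryo that stood apart in its gene number, lay within the WT range. The log2 fold changes were 1.14 ± 0.37 for H3f3a (adjusted p = 0.0927) and 1.15 ± 0.38 for H3f3b (adjusted p = 0.0971) by edgeR, short of the threshold. Without R442Q replicate 3 the adjusted p was 0.018 for H3f3a and 0.015 for H3f3b. DESeq2 gave 0.018 and 0.017, and edgeR with the stages fitted together gave 0.0069 and 0.0065. Each gene passed in only 1 of 9 fits leaving out 1 embryo and in 2 of 7 other settings. Over all of these, adjusted p reached 0.218 for H3f3a and 0.234 for H3f3b. The summed FPKM of all genes was also higher in every R442Q late 2-cell embryo, 814376 to 976830 against 712234 to 742246 in WT, and the cumulus marker sum was lower in the same 4 of 5 R442Q embryos, at 18.9, 30.4, 17.6 and 32.3 against 43.0 to 73.4 in WT, with replicate 3 at 72.3. The activation transcripts summed to 116 to 825 FPKM in WT and 454 to 1204 FPKM in R442Q embryos, which overlapped. The part of these sums in the late 2-cell values was not tested.

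Over the stage change, H3f3a rose in R442Q embryos by 1.03 ± 0.23 (adjusted p = 4.4e-04, edgeR) and moved by -0.57 ± 0.26 in WT embryos (adjusted p = 0.0585), where all 4 late 2-cell embryos lay below all 5 zygotes. The WT change passed the threshold in 13 of 20 fits leaving out 1 embryo, each with H3f3a lower. H3f3b rose by 0.80 ± 0.23 in R442Q embryos (adjusted p = 0.0040, edgeR), while the WT estimate was 0.03 ± 0.25 (adjusted p = 0.926). The difference of the genotype effect between the stages, tested as an interaction, was 1.61 ± 0.35 for H3f3a (adjusted p = 0.0049, edgeR) and held in all 20 fits leaving out 1 embryo. For H3f3b it was 0.77 ± 0.34 (adjusted p = 0.164), and 1.15 (adjusted p = 0.0039) without R442Q late 2-cell replicate 3. The interaction was called for 10.1% of the 16199 genes and for 2 of the 10 members, the other being Npm2, both with a higher effect in late 2-cell embryos, as for 3.07% of all genes (7.05% had a lower one). With relative log expression (RLE) scaling in place of TMM, the median interaction of all genes moved by 0.155 and the R442Q stage change by 0.123 on the log2 scale. All genes called in the interaction were then 707 higher and 917 lower, against 497 and 1142 with TMM, and the same number of members, 2, was called.

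**Figure D2:**
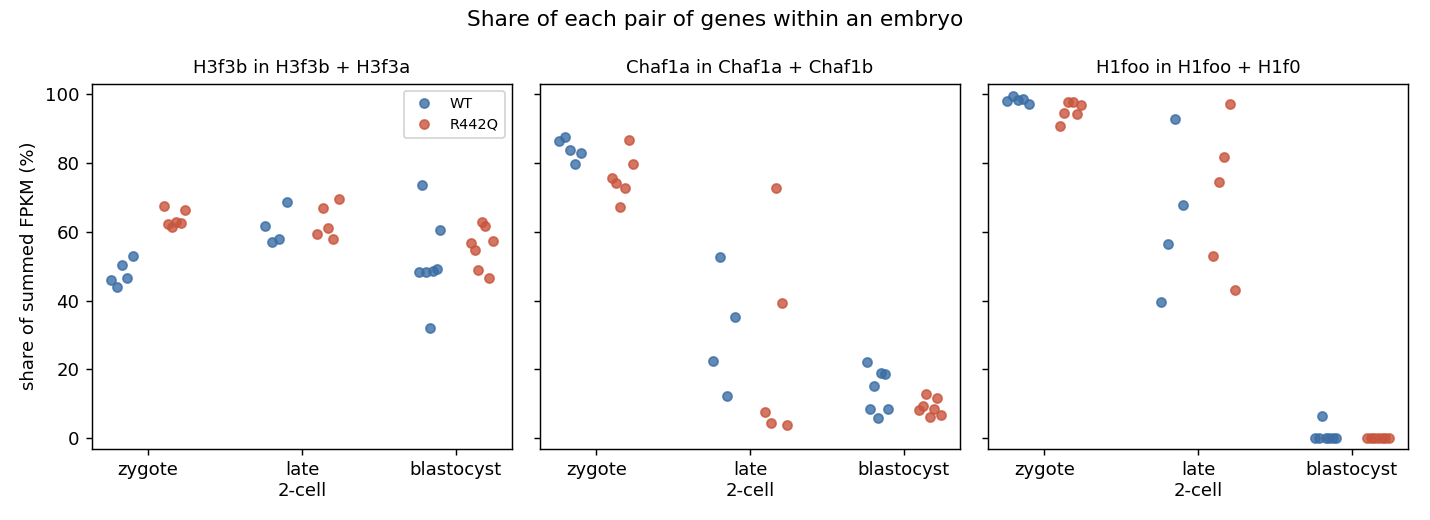
Share of the first gene in the summed FPKM of a pair, in %, for each embryo (points; WT blue, R442Q red) at 3 stages: H3f3b among the H3.3 genes, Chaf1a among the CAF-1 genes and H1foo among the linker genes. WT zygotes hold 43.9% to 52.9% H3f3b and R442Q zygotes 61.3% to 67.5%.

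The H2A variant genes each took their own course. H2afz (chr3:137864487-137866922) encodes H2A.Z, a variant found at promoters, and it had medians of 42.5, 1504 and 2351 FPKM at the 3 stages. The WT zygotes had 33.7, 33.3, 34.6, 32.3 and 36.8 CPM, and the WT late 2-cell embryos had 886, 1108, 839 and 1275 CPM. This was the largest rise among the members, a 30.0-fold increase (log2 4.91 ± 0.26, adjusted p = 1.2e-12, edgeR) in WT and a 44.6-fold increase (5.48 ± 0.25, adjusted p = 1.1e-13) in R442Q embryos, with no overlap between the stages in either. R442Q zygotes ran from 32.7 over a median of 47.4 to 58.8 CPM (0.37 ± 0.15 against WT, adjusted p = 0.122), with 2 groups that overlapped. R442Q late 2-cell embryos had 2413, 1842, 947, 2523 and 2366 CPM, so again 4 of 5 lay above all WT embryos and replicate 3 did not. The late 2-cell difference was 1.03 ± 0.33 (adjusted p = 0.0876, edgeR), 0.015 without replicate 3 and 0.015 by DESeq2. It passed in only 1 of 9 fits leaving out 1 embryo and in 2 of 7 other settings, with adjusted p up to 0.235. Of the 50-base stretches of H2afz, 16.9% occur in 4 other annotated genes.

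H2afx (chr9:44334694-44336077), whose protein is phosphorylated at DNA breaks by the ATM and ATR kinases, rose between the stages in both genotypes and did not pass the threshold between genotypes. Its medians were 26.5, 70.2 and 294 FPKM. WT zygotes had 44.1, 27.9, 28.0, 63.9 and 19.1 CPM and WT late 2-cell embryos 196, 46.8, 69.4 and 110 CPM, an overlapping spread. The rise was 1.53 ± 0.47 in WT (adjusted p = 0.0071, edgeR; 0.89, adjusted p = 0.110, without WT late 2-cell replicate 1) and 1.45 ± 0.42 in R442Q embryos (adjusted p = 0.0046). R442Q late 2-cell embryos had 82.2, 83.8, 161, 84.7 and 69.1 CPM. The genotype difference was -0.09 in both stages, with a 95% interval of -0.87 to 0.69 in zygotes and of -0.89 to 0.71 in late 2-cell embryos, both of which hold differences of either sign. The late 2-cell value turned with the setting, from -0.36 to 0.38 when 1 embryo was left out and up to 0.64 with the GC trend removed, and was called in none of these.

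H2afy (chr13:56073619-56136361), the gene of macroH2A, a variant of silent chromatin, went down and then up. Its medians were 8.77, 0.32 and 96.5 FPKM. In WT zygotes it stood at 7.77, 14.3, 10.03, 8.12 and 9.49 CPM and in WT late 2-cell embryos at 0.983, 0, 2.71 and 1.16 CPM, all below every zygote (-3.02 ± 0.96, adjusted p = 0.0096, edgeR; -3.92 without WT late 2-cell replicate 3). In R442Q late 2-cell embryos it stood at 0, 2.73, 0.145, 0 and 0.430 CPM, and it fell by 3.61 ± 0.91 (adjusted p = 0.0014), or by 5.44 without replicate 2. At these levels it was too low to be tested between genotypes at the late 2-cell stage. All 14 blastocysts lay between 45.0 and 144 FPKM, above every zygote (2.70 to 13.1 FPKM), although the tables were normalised separately and no test was made across them.

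In median FPKM the CAF-1 genes exchanged places between zygotes and late 2-cell embryos. Chaf1a stayed the larger part of their summed FPKM in WT late 2-cell replicate 2 (52.6%) and R442Q replicate 3 (72.8%). In counts, which are not divided by length, Chaf1a stayed the larger part in WT late 2-cell embryos, at a median of 57.6%. Chaf1a (chr17:56040439-56072289), the large subunit that binds the replication clamp, had medians of 25.1, 4.64 and 7.22 FPKM, and Chaf1b (chr16:93883901-93906115), the middle subunit, had medians of 5.42, 30.9 and 70.5 FPKM. By genotype, the late 2-cell median of Chaf1a was 12.5 FPKM in WT and 2.56 FPKM in R442Q embryos. Chaf1a fell by 1.60 ± 0.35 in WT (adjusted p = 3.9e-04, edgeR) and by 2.75 ± 0.33 in R442Q embryos (adjusted p = 1.5e-07), with all late 2-cell embryos of a genotype below all its zygotes. Chaf1b rose by 1.81 ± 0.54 in WT (adjusted p = 0.0058) and by 1.44 ± 0.48 in R442Q embryos (adjusted p = 0.012; 0.0589 without R442Q late 2-cell replicate 2).

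**Figure D3:**
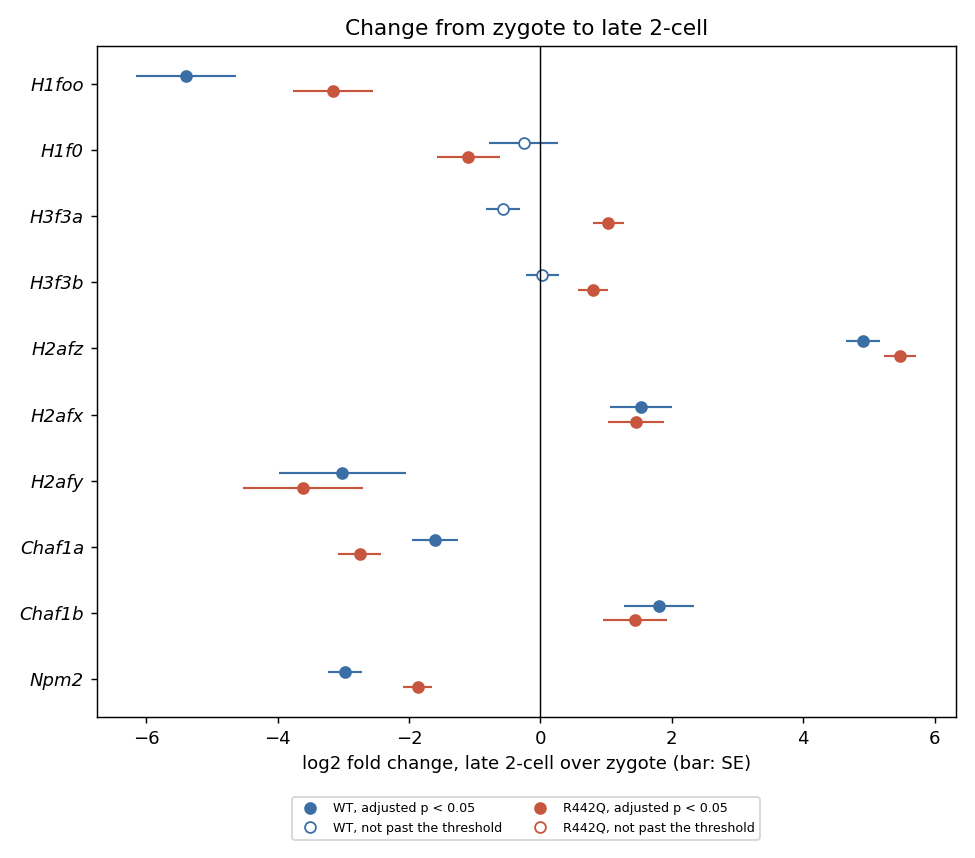
Log2 fold change from zygote to late 2-cell of the 10 members (points) with its SE (bars), in WT (blue) and R442Q (red) embryos. Filled points passed an adjusted p of 0.05 by edgeR. H2afz lies furthest to the right, at 4.91 and 5.48, and H1foo furthest to the left in WT, at -5.40.

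Chaf1a was also lower in R442Q zygotes. WT zygotes had 179, 165, 150, 138 and 146 CPM, and R442Q zygotes ran from 82.7 over a median of 99.2 to 149 CPM. A few embryos overlapped, and the log2 fold change was -0.58 ± 0.14, or 1.49-fold lower (adjusted p = 0.014, edgeR), a call that held in all 11 fits leaving out 1 embryo and was lost when the stages were fitted together (adjusted p = 0.482). Late 2-cell WT embryos had 49.1, 79.1, 24.2 and 52.3 CPM and R442Q embryos 14.4, 10.4, 15.9, 31.5 and 6.99 CPM, with 4 of 5 R442Q embryos below every WT embryo and replicate 4 within the WT range. The difference was -1.64 ± 0.47 (adjusted p = 0.0627, edgeR), and past the threshold without replicate 4 (-2.05, adjusted p = 0.028), by DESeq2 (adjusted p = 0.012) and with the stages fitted together (adjusted p = 0.0016). It passed in only 1 of 9 fits leaving out 1 embryo and in 3 of 7 other settings, with adjusted p up to 0.212. The interaction for Chaf1a was -1.15 ± 0.45 (adjusted p = 0.109). Chaf1b stood at 9.09, 7.66, 9.53, 11.2 and 9.83 CPM in WT zygotes and at 7.58 to 12.4 CPM in R442Q zygotes (0.09 ± 0.22, adjusted p = 0.851), a 95% interval of -0.34 to 0.51. Late in the 2-cell stage it was 40.3, 17.9, 39.9 and 34.6 CPM in WT and 36.0, 57.9, 1.88, 9.85 and 33.5 CPM in R442Q embryos, the latter spread over more than the WT range in both directions.

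Within the CAF-1 pair, Chaf1a made up 79.5% to 87.5% of the summed FPKM in WT zygotes and 67.1% to 86.7% in R442Q zygotes. The late 2-cell share was 12.4% to 52.6%, median 28.9%, in WT and 3.77% to 72.8%, median 7.64%, in R442Q embryos, the highest being replicate 3, whose Chaf1b was lowest. Blastocysts had 5.91% to 22.2% in WT and 6.28% to 12.9% in R442Q. Counts are not divided by length and gave higher shares, with medians of 57.6% and 28.6% in WT and R442Q late 2-cell embryos.

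Npm2 (chr14:70647302-70659244), the oocyte chaperone that helps unpack sperm chromatin, followed H1foo in its loss. Its medians were 614, 126 and 0 FPKM, and it was listed at 0 in 13 of 14 blastocysts, R442Q replicate 3 having 0.42 FPKM. WT zygotes had 547, 598, 479, 407 and 525 CPM and WT late 2-cell embryos 59.5, 76.8, 76.6 and 47.5 CPM, a decrease of 7.85-fold (-2.97 ± 0.26, adjusted p = 1.5e-09, edgeR) with no overlap. R442Q zygotes ran from 408 over a median of 448 to 519 CPM, and the difference from WT was -0.20 ± 0.11 (adjusted p = 0.247, edgeR; 0.048 by limma on deposited FPKM). R442Q late 2-cell embryos had 133, 69.5, 145, 188 and 87.4 CPM, with 4 of 5 above every WT embryo. That difference was 0.99 ± 0.34 (adjusted p = 0.112, edgeR; 0.042 by DESeq2), and the fall over the stages was 3.65-fold in R442Q embryos (-1.87 ± 0.22, adjusted p = 1.3e-07). The late 2-cell difference passed in 0 of 9 fits leaving out 1 embryo and in 2 of 7 other settings, with adjusted p up to 0.290. The interaction was called, at 1.11 ± 0.32 (adjusted p = 0.028, edgeR), and was lost without WT late 2-cell replicate 4 (adjusted p = 0.069). It was also lost with the replicate number as a block (adjusted p = 0.078, edgeR). Beside this, the 6 maternal marker transcripts summed to 1212 to 3122 FPKM in WT and 1647 to 6893 FPKM in R442Q late 2-cell embryos, and their part in the Npm2 result was not tested.

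**Figure D4:**
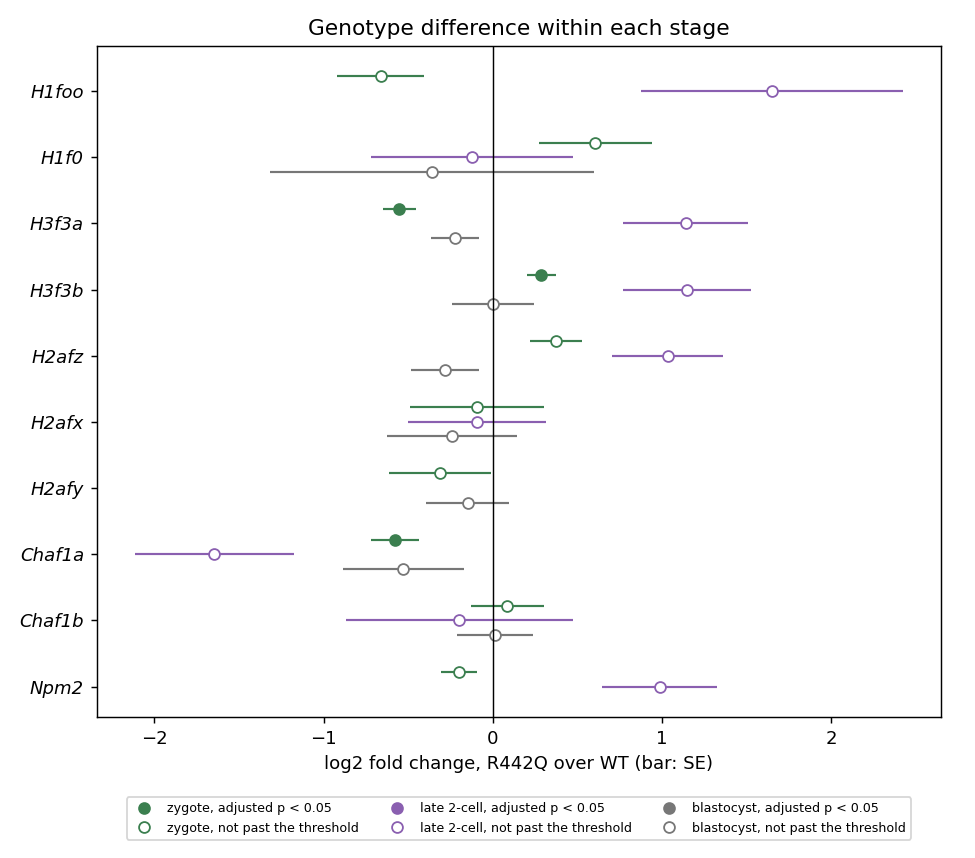
Log2 fold change of R442Q over WT (points) with its SE (bars) for the members tested in zygotes (green), late 2-cell embryos (purple) and blastocysts (grey). Filled points passed an adjusted p of 0.05: H3f3a at -0.55, H3f3b at 0.29 and Chaf1a at -0.58, all in zygotes.

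In the inhibitor-treated blastocysts the members differed little between genotypes against their spread, H1foo and Npm2 being too low to be tested. H2afz ran from 1712 over a median of 2824 to 4706 FPKM in WT and from 1910 over 2283 to 2736 FPKM in R442Q blastocysts (log2 of FPKM + 1, -0.28 ± 0.20, adjusted p = 0.816, limma). H3f3a ran from 778 over 1023 to 1405 and from 836 over 882 to 1037 FPKM (-0.22 ± 0.14, adjusted p = 0.795). Both groups overlapped in each gene, and the WT embryos reached higher. Chaf1a, the member with the largest difference in size, ran from 5.09 over 9.86 to 20.5 FPKM in WT and from 3.38 over 6.61 to 10.8 FPKM in R442Q (-0.53 ± 0.36, adjusted p = 0.811), with a 95% interval of -1.23 to 0.17. H3f3b, H2afx, H2afy, H1f0 and Chaf1b had differences of 0.00, -0.24, -0.15, -0.36 and 0.01, with adjusted p of at least 0.928. The median over the 8 members was -0.23 and that over all genes tested -0.10. Summed trophectoderm markers overlapped as well, at 3200 to 24282 FPKM in WT and 1245 to 12860 FPKM in R442Q.

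The members were set beside 40 further genes of histone variants and histone handling, which made 50 in 6 lists. In zygotes 48 of the 50 were tested, 5 higher and 7 lower in R442Q embryos, with a median of -0.09 against 0.01 over all genes, of which 6.30% were called higher and 6.92% lower. At the late 2-cell stage 47 were tested, 1 higher and 5 lower, with a median of -0.04 against 0.07 over all genes, of which 1.22% were called higher and 2.95% lower. In blastocysts 47 were tested and limma called 0, with 1 at an unadjusted p under 0.05. By list in zygotes, the CAF-1 and replication-coupled list had 1 higher and 2 lower of 14 tested, the H2A and nucleoplasmin-type chaperones 3 and 3 of 14, the core variants 1 and 1 of 8, the H3.3 deposition genes 0 and 1 of 6, and the linker (2 tested) and CENP-A deposition lists (4 tested) none. At that later stage the CAF-1 list had 1 higher and 2 lower of 14 and the chaperone list 0 and 3 of 13, and the other 4 lists none by edgeR.

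Mcm2, a subunit of the replicative helicase that also holds H3 and H4, moved in opposite directions at the 2 stages. WT zygotes had 217, 128, 149, 187 and 224 CPM and R442Q zygotes 232 to 344 CPM, all above WT (0.68 ± 0.16, adjusted p = 0.0096, edgeR; 0.101 with the stages fitted together). WT late 2-cell embryos had 94.7, 113, 91.3 and 109 CPM and R442Q embryos 9.21, 15.8, 12.7, 25.4 and 15.4 CPM, all below WT (-2.64 ± 0.34, adjusted p = 0.0022). The interaction for Mcm2 was -3.41 ± 0.33 and held in all 20 fits leaving out 1 embryo. Ssrp1, a subunit of the FACT complex that handles H2A and H2B, behaved likewise, at 0.51 ± 0.13 in zygotes (adjusted p = 0.014, called in 5 of 7 other settings and up to 0.420) and -1.76 ± 0.44 in late 2-cell embryos (adjusted p = 0.038, held in 4 of 9 fits leaving out 1 embryo). Supt16, the other FACT subunit, fell in R442Q zygotes (-0.68 ± 0.15, adjusted p = 0.0068), a call lost with the stages fitted together (adjusted p = 0.510). Asf1a, which hands H3 and H4 to CAF-1, was higher in R442Q late 2-cell embryos (1.59 ± 0.39, adjusted p = 0.037), a call that held in 2 of 9 fits leaving out 1 embryo.

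Further called genes that the naming rule took were Set (0.82) and Anp32e (0.76), both higher in R442Q zygotes, and Nap1l4 (-0.52), Ino80 (-0.87) and Nasp (-0.42), all lower there. Set is a histone chaperone, Anp32e removes H2A.Z from nucleosomes, Nap1l4 and Nasp carry histones, and Ino80 is a remodeller ATPase. Their adjusted p lay between 0.010 for Set and 0.043 for Anp32e by edgeR, and Anp32e was called in 3 and Nasp in 7 of 11 fits leaving out 1 embryo. Of 7 other settings, Set was called in 6, with adjusted p up to 0.285, and Nap1l4, Ino80, Nasp and Anp32e in 5 each, with adjusted p up to 0.445, 0.347, 0.398 and 0.225. Among late 2-cell embryos Srcap, the ATPase that inserts H2A.Z, stood at 128, 113, 115 and 140 CPM in WT and at 30.7, 16.7, 36.5, 21.3 and 27.6 CPM in R442Q embryos (-2.16 ± 0.31, adjusted p = 0.0038, edgeR). Ipo4, an importin of H3 and H4, was also lower (-2.71 ± 0.45, adjusted p = 0.0096; -0.92, adjusted p = 0.180, by limma on deposited FPKM). For both, no R442Q embryo reached the WT range, but 60.3% of the 50-base stretches of Srcap and 51.6% of those of Ipo4 occur in other annotated genes, so their values are uncertain. Of the stretches of Set, 29.3% occur in 13 other annotated genes, which limits its zygote value and its stage change below as well.

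**Figure D5:**
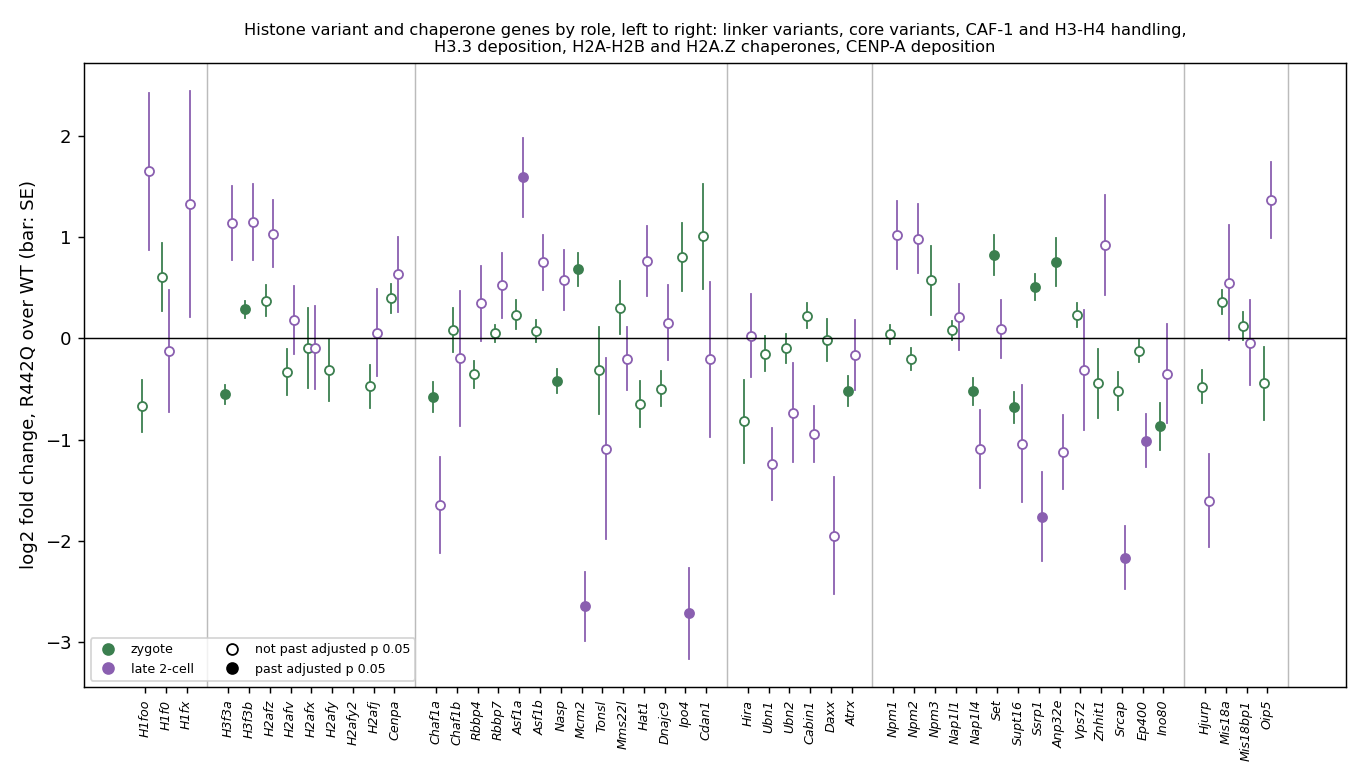
Log2 fold change of R442Q over WT (points) with its SE (bars) for the 50 genes in 6 lists, in zygotes (green) and late 2-cell embryos (purple). Filled points passed an adjusted p of 0.05 by edgeR. Mcm2 is at 0.68 in zygotes and -2.64 in late 2-cell embryos.

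Over the stage change, 49 of the 50 genes were tested. In WT embryos 18 rose and 15 fell, where 61.2% of all genes were called (36.2% higher and 25.0% lower), and in R442Q embryos 21 rose and 21 fell, where 65.1% were called (35.3% higher and 29.8% lower). Among core variants 5 of 8 rose in WT and 7 of 8 in R442Q embryos, with H2afv, the second H2A.Z gene, at 3.08 ± 0.30 and 3.50 ± 0.28 and H2afj at 3.20 ± 0.36 and 3.63 ± 0.33. Set rose by 5.28 ± 0.27 and 4.47 ± 0.23, and Oip5, which loads the centromere histone, by 3.38 ± 0.36 and 5.10 ± 0.35. Rbbp7, a histone-binding partner of the Hat1 acetyltransferase, fell by 2.63 ± 0.23 and 2.25 ± 0.21, and Ep400, a remodeller ATPase, by 1.52 ± 0.17 and 2.50 ± 0.16. Vps72, which binds H2A.Z, fell by 3.04 ± 0.44 (3.64 without WT late 2-cell replicate 2) and Asf1a by 2.50 ± 0.30 in WT embryos, and Mcm2 fell by 4.24 ± 0.25 and Ssrp1 by 3.13 ± 0.30 in R442Q embryos. The interaction was called for 14 of the 49, 6 higher and 8 lower, against 3.07% and 7.05% of all genes. Oip5 (1.72 ± 0.47), Hat1 (1.32 ± 0.42), Asf1a (1.27 ± 0.38) and Nasp (0.91 ± 0.28) were higher, and Ipo4 (-3.60 ± 0.59), Mcm2 (-3.41), Ssrp1 (-2.37 ± 0.41) and Srcap (-1.73 ± 0.35) were lower. Asf1a held in 14, Nasp in 13 and Hat1 in 12 of 20 fits leaving out 1 embryo.

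Over the 20 zygotes and late 2-cell embryos, the genes most like each member in log2 CPM were found among genes of moderate expression. For H2afz these were Map1lc3b, Mdh2 and Rplp0 (Pearson r 0.995, 0.994 and 0.993), and for Npm2 they were Skap1, AC104866.2 and Oas1c (r 0.987, 0.985 and 0.984). H1foo was most like Phactr3, Nit2 and Aurkc (r 0.975, 0.973 and 0.973), Chaf1a like Slc4a1ap, St3gal5 and Add2 (r 0.963, 0.957 and 0.956), and H2afy like Gm33819, Icosl and Grhl1 (r 0.952, 0.949 and 0.948). H3f3b was most like Psmd8, Ubb and Hprt (r 0.914, 0.901 and 0.901), H3f3a like Erh, Tmem29 and Eloc (r 0.880, 0.879 and 0.850), and Chaf1b like Rab3ip, Fen1 and Znhit2 (r 0.876, 0.855 and 0.845). H1f0 was most like Vapa, Tinf2 and Rnf187 (r 0.862, 0.794 and 0.788) and H2afx like Rptor, Gm49030 and Gm6410 (r 0.849, 0.826 and 0.826). These values describe the points, which share stage and library, and carry no test.

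Within groups, after each embryo's deviation from its group mean was taken, H3f3a, H3f3b and H2afz moved together, at r = 0.85 for H3f3a with H3f3b, 0.86 for H3f3a with H2afz and 0.87 for H3f3b with H2afz over 20 embryos. Chaf1a and Chaf1b deviated in opposite directions (r = -0.50), and Npm2 deviated with Chaf1a (r = 0.56) and opposite to Chaf1b (r = -0.61). Without R442Q late 2-cell replicate 3, a setting chosen after seeing the data, the first 3 values were 0.57, 0.63 and 0.65 over 19 embryos, and those of the CAF-1 pair and of Npm2 with Chaf1a and Chaf1b were -0.77, 0.56 and -0.76. Other pairs also turned on this embryo. Without it, r of H3f3a went from 0.37 to 0.74 with Chaf1a and from 0.43 to -0.70 with Chaf1b. That of H3f3b with Chaf1b went from 0.61 to -0.31, so the first 3 genes were not a set apart. Embryos share library and depth across genes, and these values carry no test.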

How the data were processed

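Libraries were made from single embryos with SMART-seq2 and Nextera, per the labels' protocols. The authors deposited estimated counts per gene symbol for zygotes and late 2-cell embryos, not normalised, and FPKM for all 3 stages, scaled by the authors for the length of transcripts and the size of libraries. RSEM and the genome build mm10 are named in the submitters' processing notes, with no version, and the aligner, annotation and use of strand are not given in the sources used here. Counts were rounded and tested in R 4.3.3 with edgeR 4.0.16 (filterByExpr with a minimum count of 10, TMM scaling, quasi-likelihood test), each stage alone, and in a joint model of 4 groups for stage changes and the interaction. CPM are on the scaling of the joint model. For blastocysts limma 3.58.1 was run on log2(FPKM + 1), a pseudocount of 1, with trend, keeping genes that reached an FPKM of 1 in 7 or more embryos. P-values were adjusted by the Benjamini-Hochberg method over all genes tested, with a threshold of 0.05. Fold changes on log2(FPKM + 1) understate those of low genes. DESeq2 1.42.0, other scalings and filters, and fits leaving out 1 embryo were alternatives. FPKM tables were normalised separately by the authors and were not tested across stages. Members and lists were chosen with earlier results of these data known. All 10 members are named, and from the wider lists up to 4 genes higher and 4 lower per comparison by smallest p, plus the 3 genes most like each member with a mean log2 CPM of at least 2. Positions are those of GENCODE M21 (GRCm38), and sequences are from RefSeq.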

Additional observations from a re-analysis of the deposited data

Results flagged for a closer look

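In 6 of the 58 groups of 4 to 7 embryos examined, 1 embryo lay far from the others. Chance alone flags about 1 in 20 groups, a rate that does not hold for 2 of the 6, where all other embryos are at 0 and any value above 0 stands apart by construction. H1foo stood at 298 CPM in R442Q late 2-cell replicate 4 against 17 to 32.4 CPM in the other 4. H2afx stood at 161 CPM in R442Q late 2-cell replicate 3 against 69.1 to 84.7 CPM. H2afy stood at 2.73 CPM in R442Q late 2-cell replicate 2 against 0 to 0.430 CPM. H1f0 stood at 548 FPKM in WT blastocyst replicate 2 against 0.04 to 23.9 FPKM. H1foo was at 0.41 FPKM in WT blastocyst replicate 3 and Npm2 at 0.42 FPKM in R442Q blastocyst replicate 3, both listed at 0 in the other 6 embryos of their groups, the 2 cases named above.

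The genotype effect differed between zygotes and late 2-cell embryos for 2 of the 10 members by the interaction test of edgeR. Of all 16199 genes tested, 10.1% were called (3.07% higher and 7.05% lower). It was 1.61 higher on the log2 scale in late 2-cell embryos for H3f3a (adjusted p = 0.0049) and 1.11 higher for Npm2 (adjusted p = 0.028). The Npm2 call held in 19 of 20 fits leaving out 1 embryo and in 3 of 4 other settings, with adjusted p up to 0.078.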

How the results depend on the processing

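Of 292 member results recomputed under settings other than leaving out an embryo, 254 kept direction and side of the threshold, 16 newly passed it, 10 no longer passed it and 12 changed sign. Fitting the stages together left 0 called members and 270 called genes in zygotes, and 5 and 2507 in late 2-cell embryos. At the late 2-cell stage DESeq2 called 5 members and 1683 genes, no count filter gave 1 and 889, and removal of the GC trend gave 326 genes. In blastocysts all genes called numbered 0 with no filter, 3 with TMM rescaling and 5 with array weights. The replicate block gave 58 genes in late 2-cell embryos and 0 in blastocysts, and 1 member (H3f3a) and 1085 genes in the interaction, where Npm2 was lost (adjusted p = 0.078). With the block H3f3b was also lost in zygotes (adjusted p = 0.121), H1foo gained there (adjusted p = 0.042) and Chaf1b lost in the R442Q stage change (adjusted p = 0.069). Same-numbered embryos correlated at -0.168 to 0.204 over all comparisons, and each correlated best with its own number in 1 of 5 zygote, 1 of 4 late 2-cell and 2 of 7 blastocyst pairs, so the numbers were not taken to pair embryos. Signs of uncalled values changed: late 2-cell H1f0 to 0.035 on FPKM with limma and 0.23 without the GC trend, H2afx to 0.0023, 0.64 and, with the block, 0.15, blastocyst Chaf1b to -0.0041 with array weights, the WT stage change of H3f3b to -0.0016 with RLE and DESeq2 and -0.0079 without a filter, and the H2afx interaction to 0.075 with RLE, 0.074 with DESeq2 and 0.061 with the block. The cause was not tested. Leaving out 1 embryo gave 2 to 4 called members and 1125 to 1718 genes in zygotes, 0 to 3 and 142 to 891 in late 2-cell embryos, 0 to 0 and 0 to 30 in blastocysts, 6 to 8 and 9306 to 10279 for the WT stage change, 8 to 10 and 10095 to 10834 for the R442Q stage change, and 1 to 5 and 1089 to 2311 for the interaction. It also changed the sign of uncalled values: H2afx in zygotes (-0.34 to 0.20), H1foo (-0.026 to 1.92), H1f0 (-0.50 to 0.30), H2afx (-0.36 to 0.38) and Chaf1b (-0.64 to 0.11) in late 2-cell embryos, H1f0 (-1.01 to 0.50), H3f3b (-0.13 to 0.16) and Chaf1b (-0.083 to 0.15) in blastocysts, H1f0 (-0.86 to 0.12) and H3f3b (-0.19 to 0.083) in the WT stage change, and H2afx (-0.37 to 0.52), H2afy (-2.32 to 0.25) and Chaf1b (-0.63 to 0.082) in the interaction. The number of embryos limits what small changes can be called, and blastocyst depth is unknown.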
